A study of Homo sapiens with 11 samples.

Results

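The levels of 32 genes of DNA replication, the G1/S transition and mitosis were described in 11 established cell lines of T-cell acute lymphoblastic leukemia (T-ALL). The genes were taken by name and not by their values, but with earlier results of these data known. They were 14 replication genes, 6 G1/S regulators and 12 mitosis genes, out of 19775 genes with a probe set that carries their symbol alone. Where a gene had several such probe sets, the brightest on average was read, and all 32 genes could be read. A single HG U133 Plus 2.0 array was hybridized per line with total RNA, so that lines serve as replicates and p-values measure the spread between lines. Among other questions, the study asked which genes go along with activity of NKL homeobox genes. These are a subclass of developmental transcription factors that is aberrantly active in part of T-ALL. The NKL-positive lines were JURKAT, PEER, LOUCY, HPB-ALL, CCRF-CEM and ALL-SIL. The NKL-negative lines were SUP-T1, CML-T1, MOLT-16, MOLT-14 and MOLT-4. JURKAT was left out of the comparison of groups, as in the study, and is given in each description. The labels name no treatment and no genetic change made for the experiment in either group. The lines were derived from different leukemias, and their NKL status cannot be told apart from anything else in which the groups differ.

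The T-lineage identity of the lines was checked first. CD3D, a chain of the T-cell receptor complex, lay between 12.64 and 13.44 on the log2 scale in the 11 lines, and 7 of the 8 T-lineage markers were above the array median in every line. The exception was CD2, which was above it in 7 lines. The myeloid genes MPO and CD14 were above the array median in 0 lines, LYZ in 2 and CSF1R in 4. Of the B-lineage genes, BLK was above it in 1 line, MS4A1 in 2, PAX5 in 7 and CD79A in 11. CD79A and MS4A1 were highest in CML-T1, at 10.12 and 6.54. The arrays differed in their poly-A spike-in controls, bacterial transcripts that are added to the RNA before labelling. The mean over 24 of these control probe sets was 3.14 in CML-T1, 3.01 in MOLT-16 and 3.09 in HPB-ALL, below the median of each array. In the other 8 lines it ranged from 5.96 to 9.48. The 3 lines without detectable controls thus form a technical split that runs across the NKL groups, with 1 NKL-positive and 2 NKL-negative lines. The ACTB control, the 3' minus 5' log2 signal of 1 transcript that grows when RNA is degraded or copied incompletely, was 0.94 to 1.02 in these 3 lines and 0.17 to 1.17 in the others, a difference of 0.40 (exact permutation test, two-sided, p = 0.0788; the smallest p possible is 0.00606). The same measure for GAPDH pointed the other way, with a mean of 0.0067 in the 3 lines and 0.22 in the others (exact permutation test, two-sided, p = 0.218).

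Before a cell copies its DNA, the helicase subunits MCM2 to MCM7 are loaded onto replication origins by CDC6 and CDT1, and the GINS proteins join when the origins fire. The sliding clamp PCNA then holds the polymerases on the template, while ribonucleotide reductase and thymidylate synthase supply the nucleotides. Entry into this phase is governed by D- and E-type cyclins and by E2F transcription factors, and passage through mitosis by CDK1 with its cyclins, by the Polo-like and Aurora kinases and by the spindle checkpoint. As these programs are used mainly by dividing cells, many of their transcripts are widely used as markers of proliferation.

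Many replication and mitosis members share short promoter words as well as function. RefSeq promoter windows of build GRCh38.p14, which hold 250 bases before and 50 bases after an annotated start site, were found for 27 members in 35 windows. MCM4, MCM5, CCND2, CCNE2 and AURKA were not among them. Words were searched on both strands. The E2F words were TTTCCCGC, TTTCGCGC, TTTGCCGC and TTTGGCGC, which are forms of the site bound by E2F factors. The words for the cell cycle homology region (CHR), an element of many mitotic promoters, were TTTGAA and TTCGAA. The CCAAT word, which is bound by NF-Y, was the third. An E2F word stood in 10 of 16 windows of replication genes (62.5%) and in 2 of 13 windows of mitosis genes (15.4%), each of them a window of CDK1. It stood in 3.32% of the 35116 windows of all genes. A CHR word stood in 9 of 13 windows of mitosis genes (69.2%), in 2 of 16 windows of replication genes (12.5%) and in 16.4% of all windows. CCAAT stood in 13 of 16 replication windows (81.3%) and in 12 of 13 mitosis windows (92.3%), against 34.6% of all windows. Of 6 windows of G1/S regulators, 2 held an E2F word, 0 a CHR word and 3 CCAAT. Wider lists of genes of the same processes gave a like division for the E2F and CHR words. An E2F word was present in 32.7% of 55 windows of other replication genes and in 4.92% of 61 windows of other mitosis genes. A CHR word was present in 5.45% and 68.9% of the same windows. CCAAT was present in 45.5% and 62.3% of them, less often than in the windows of the members. Windows of a gene overlap in part, matches of different words overlapped in 2 places, and a match is a description of letters and not a site that was measured.

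The following stretches are the 200 bases before an annotated start site of 6 members. The members were chosen because results turn on their values or because they show the words of their group. Where a member had several windows, the one with the most words in this stretch is shown. The other windows of MCM7 hold no E2F word, and the other window of CDK1 holds an E2F, a CHR and a CCAAT word. Capitals mark E2F, CHR and CCAAT words on either strand. For the replication genes MCM7 (chr7:100101398-100101597 on the minus strand) and TYMS (chr18:657453-657652 on the plus strand) and for the G1/S regulator E2F1 (chr20:33686386-33686585 on the minus strand), an E2F word lies close to the start site, on the right.

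MCM7: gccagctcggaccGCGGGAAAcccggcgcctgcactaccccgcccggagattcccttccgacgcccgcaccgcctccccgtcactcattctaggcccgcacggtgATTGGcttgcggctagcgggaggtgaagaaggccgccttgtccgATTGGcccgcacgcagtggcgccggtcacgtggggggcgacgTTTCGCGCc

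TYMS: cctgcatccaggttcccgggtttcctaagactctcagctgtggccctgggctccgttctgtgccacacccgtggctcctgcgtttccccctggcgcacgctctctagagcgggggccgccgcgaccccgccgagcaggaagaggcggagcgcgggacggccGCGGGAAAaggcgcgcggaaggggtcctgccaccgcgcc

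E2F1: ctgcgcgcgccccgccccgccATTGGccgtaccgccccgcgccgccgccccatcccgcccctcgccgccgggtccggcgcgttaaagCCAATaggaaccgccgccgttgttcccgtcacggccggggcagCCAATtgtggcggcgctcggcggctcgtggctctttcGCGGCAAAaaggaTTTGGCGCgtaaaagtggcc

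For the mitosis genes CDK1 (chr10:60778278-60778477 on the plus strand), PLK1 (chr16:23678689-23678888 on the plus strand) and CDC20 (chr1:43358781-43358980 on the plus strand), a CHR word and a CCAAT word stand in the same stretch, and CDK1 holds an E2F word in addition.

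CDK1: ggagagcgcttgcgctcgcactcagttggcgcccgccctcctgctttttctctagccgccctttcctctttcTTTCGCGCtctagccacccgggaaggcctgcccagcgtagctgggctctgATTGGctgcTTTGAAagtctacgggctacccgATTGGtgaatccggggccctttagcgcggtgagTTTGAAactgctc

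PLK1: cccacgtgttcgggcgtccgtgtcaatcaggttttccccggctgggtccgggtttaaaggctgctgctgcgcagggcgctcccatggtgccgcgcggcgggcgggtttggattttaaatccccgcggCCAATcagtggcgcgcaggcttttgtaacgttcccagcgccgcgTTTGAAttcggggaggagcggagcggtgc

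CDC20: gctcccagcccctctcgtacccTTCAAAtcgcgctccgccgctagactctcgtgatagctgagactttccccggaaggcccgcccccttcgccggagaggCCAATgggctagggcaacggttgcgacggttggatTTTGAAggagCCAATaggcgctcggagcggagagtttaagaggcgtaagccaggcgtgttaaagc

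The plot of promoter words shows this division between the lists.

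**Figure D1:**
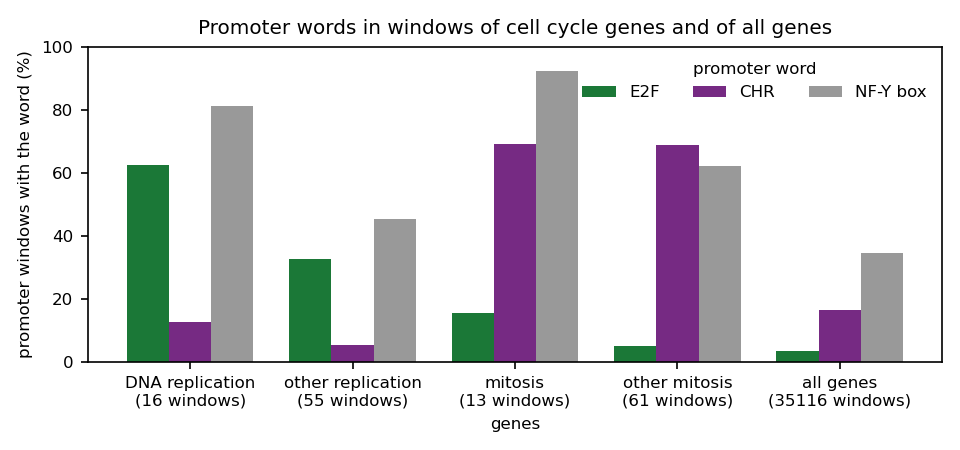
Share of promoter windows (y axis, percent, starting at 0) that hold an E2F word, a CHR word or the NF-Y box on either strand, for the replication and mitosis genes, for other genes of the same processes and for all genes (x axis, with the number of windows). E2F words were found in 62.5% of replication windows and CHR words in 69.2% of mitosis windows, against 3.32% and 16.4% of all windows.

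Of the 32 genes, 31 were above the array median in all 11 lines. The exception was CCND2, which was above it in 7 lines. Between lines, replication and mitosis genes differed somewhat less than genes above the array median in general, and G1/S regulators differed more. The median SD over the 11 lines was 0.46 log2 units for replication genes, 0.55 for mitosis genes and 0.77 for G1/S regulators, beside 0.58 for the 11946 genes whose mean lies above the array median. The values of different probe sets cannot be set against each other, and each member was therefore centred on its own median over the 11 lines before the lines were compared. The mean deviation of the 14 replication genes was -0.67 in CML-T1 and -0.57 in MOLT-16, and the other 9 lines lay between -0.22 in LOUCY and 0.32 in MOLT-4. The mean deviation of the 12 mitosis genes was -0.85 in CML-T1 and -0.49 in MOLT-16, and the other 9 lines lay between -0.18 in MOLT-14 and 0.57 in HPB-ALL. Thus CML-T1 and MOLT-16 were the lowest lines for both programs, and each of them is NKL-negative and without poly-A controls. In a bulk RNA sample, fewer cells in S phase or mitosis and less of these transcripts per cell cannot be told apart.

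CML-T1 had the lowest value of the 11 lines in 8 of 14 replication genes and in 7 of 12 mitosis genes, and MOLT-16 in 3 and 3 of them. Over these 26 genes the share was 57.7% for CML-T1 and 23.1% for MOLT-16. Of the 11946 genes above the array median, CML-T1 was lowest for 11.6% and MOLT-16 for 14.9%. Together CML-T1 and MOLT-16 were the lowest pair for 15 of the 26 genes (57.7%). The same pair was lowest for 8.69% of the 11946 genes above the array median, for 22.2% of 45 other replication genes and for 35.1% of 57 other mitosis genes. The pair was chosen after its values were seen, and whether the B-lineage transcripts or the 3' to 5' signal of these lines bear on the values was not tested. TYMS, which makes thymidylate, is an example with a narrow spread in the other lines. It was 11.87 in CML-T1, 12.28 in MOLT-16, 12.91 in MOLT-14 and 13.00 to 13.24 in the remaining 8 lines. Quantile normalization gave the arrays a common distribution, so a shift of a whole array could not be seen in these values. HPB-ALL, the third line without poly-A controls, had mean deviations of 0.04 for replication and 0.57 for mitosis, the latter the highest of the 11 lines.

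**Figure D2:**
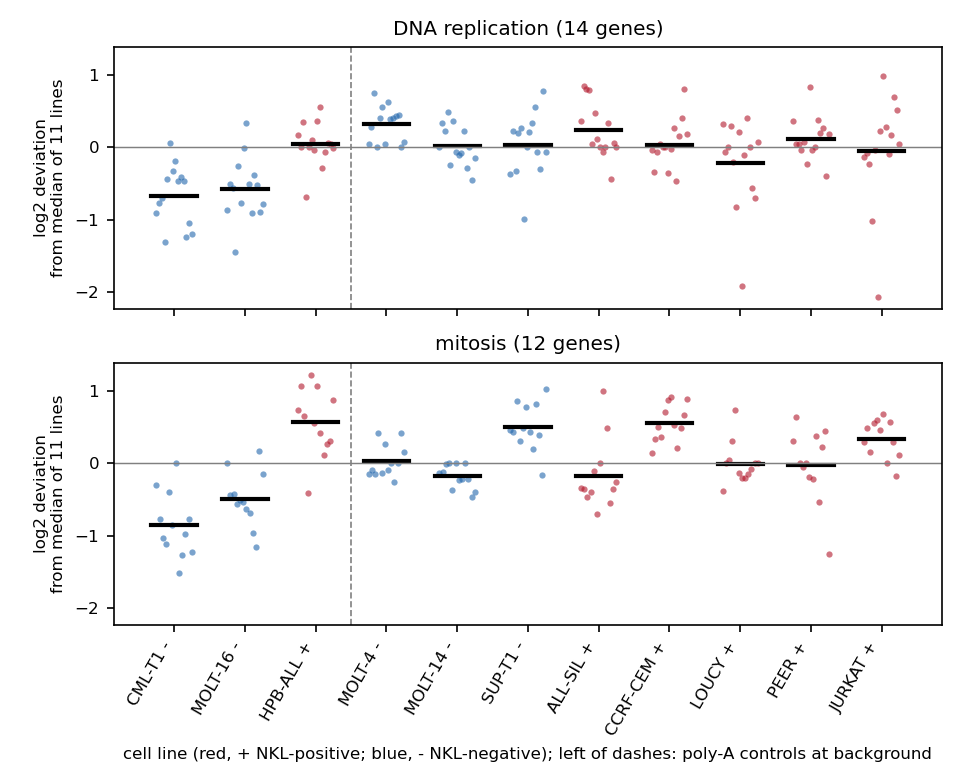
Deviation of each gene from its median over 11 lines (y axis, log2) in each line (x axis) for 14 replication genes (upper panel) and 12 mitosis genes (lower panel). Points are genes and black bars their mean. CML-T1 and MOLT-16 have the lowest bars in both panels, at -0.67 and -0.57 for replication and at -0.85 and -0.49 for mitosis.

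The programs did not run in parallel in the other lines. The mitosis mean exceeded the replication mean by 0.53 in HPB-ALL, 0.51 in CCRF-CEM, 0.47 in SUP-T1, 0.39 in JURKAT, 0.21 in LOUCY and 0.084 in MOLT-16. It lay below the replication mean by -0.41 in ALL-SIL, -0.28 in MOLT-4, -0.20 in MOLT-14, -0.18 in CML-T1 and -0.14 in PEER. Each side of this order holds lines of both NKL groups. Over the 11 lines the line means for replication and mitosis had Pearson's r = 0.63, and over the 9 lines other than CML-T1 and MOLT-16 r = -0.23, so the relation rests on this pair. The points share arrays. Within the mitosis group the members went together, with a median r of 0.61 over 66 pairs of genes and 0 pairs below 0. The replication genes had a median r of 0.44 over 91 pairs, of which 12 were below 0. Without CML-T1 and MOLT-16 the median was 0.40 for mitosis, with 8 pairs below 0, and 0.086 for replication, with 41 pairs below 0. The mean of the 12 mitosis genes followed that of 57 other mitosis genes with r = 0.98 over 11 lines and r = 0.95 over 9. For the 14 replication genes and 45 other replication genes r was 0.86 over 11 lines but only 0.37 over 9.

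Among the subunits of the MCM helicase, MCM7 had a line that stood out. Its level in JURKAT was 9.0, against 10.07 in SUP-T1, 10.24 in LOUCY, 10.29 in MOLT-16 and 10.83 to 11.61 in the remaining 7 lines. JURKAT was thus the lowest line by more than 1 log2 unit, and 2.09 below the median of the other 10. The second probe set of MCM7 gave 8.73 in JURKAT and 9.83 to 11.78 in the others. Across the 11 lines, MCM2 to MCM6 had correlations of 0.63 to 0.80 with the mean of the other replication genes, while that of MCM7 was 0.11. Over the 9 lines other than CML-T1 and MOLT-16 they ran from -0.03 to 0.64 and MCM7 had 0.30, so MCM7 was not set apart there. MCM5 was also low in JURKAT, at 9.70 against a median of 10.72 over the lines, whereas MCM6 was 12.03 against a median of 12.07.

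CDT1, which loads the helicase and is degraded during S phase, stood out in another line. Its level was 7.01 in LOUCY and 8.73 to 9.90 in the other 10 lines, with the highest value in JURKAT. The second probe set gave 6.94 in LOUCY but also 7.44 in MOLT-16 and 7.54 in PEER. MCM3 was highest in ALL-SIL, at 11.67, with 10.06 to 11.16 in the other lines. ALL-SIL was the highest line for MCM2, MCM3, MCM4 and MCM5, whereas for MCM6 and MCM7 the highest line was MOLT-4.

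The loading factor CDC6 and the GINS subunits had a modest spread. CDC6 was 7.97 in CCRF-CEM, 8.01 in CML-T1 and 9.16 in PEER, the highest line. GINS1 ranged from 9.71 in MOLT-16 to 10.78 in HPB-ALL and GINS2 from 8.89 in MOLT-16 to 10.35 in SUP-T1. GINS1 was more strongly correlated with the mitosis mean (r = 0.90) than with the mean of the other replication genes (r = 0.71) over the 11 lines. RRM2, the regulated subunit of ribonucleotide reductase, stood alike, with r = 0.86 and 0.54. Over the 9 lines the values were 0.81 and 0.096 for GINS1 and 0.75 and -0.095 for RRM2. PCNA had a range of only 0.90, from 11.73 in CML-T1 to 12.63 in MOLT-4.

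The G1/S regulators held the member with the widest range. CCND2, a D-type cyclin that activates CDK4 and CDK6, was 11.85 in CML-T1, 9.69 in MOLT-16, 8.20 in PEER, 6.38 in LOUCY, 5.73 in MOLT-14, 5.44 in ALL-SIL and 5.27 in JURKAT. It was 3.82 in MOLT-4, 3.31 in HPB-ALL, 3.14 in CCRF-CEM and 2.92 in SUP-T1, of which the last 3 lie below the lower quartile of their array. The lines lowest in replication and mitosis genes were therefore the highest in CCND2. Its SD of 2.89 was larger than that of 99.5% of the genes above the array median. Over the 11 lines CCND2 had r = -0.90 with the mean of the mitosis genes and r = -0.78 with that of the replication genes. Over the 9 lines other than CML-T1 and MOLT-16 these were -0.71 and -0.16, so the relation with replication rests on that pair. A pair of its other probe sets was also highest in CML-T1 and MOLT-16, at lower signal (r = 0.92 and 0.95 with the probe set read). The order of the other lines was not kept there. The fourth (r = 0.47) was highest in CML-T1, at 5.62, but lowest in MOLT-16, at 3.31.

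CCND3, the D-type cyclin needed for the expansion of thymocytes, was present in every line, from 10.26 in MOLT-16 to 12.79 in SUP-T1. The lines with the lowest CCND3 were MOLT-16, MOLT-14 at 10.73 and LOUCY at 10.76, and CML-T1 was close to the median at 12.03. CCNE2, an E-type cyclin that acts with CDK2 at the start of S phase, was 7.03 in CML-T1, 8.16 in MOLT-16 and 7.82 in MOLT-14, and the other 8 lines had 9.07 to 10.18. CCNE1 ranged from 6.20 in MOLT-14 to 8.08 in HPB-ALL, and E2F2 from 8.79 in LOUCY to 10.07 in JURKAT.

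**Figure D3:**
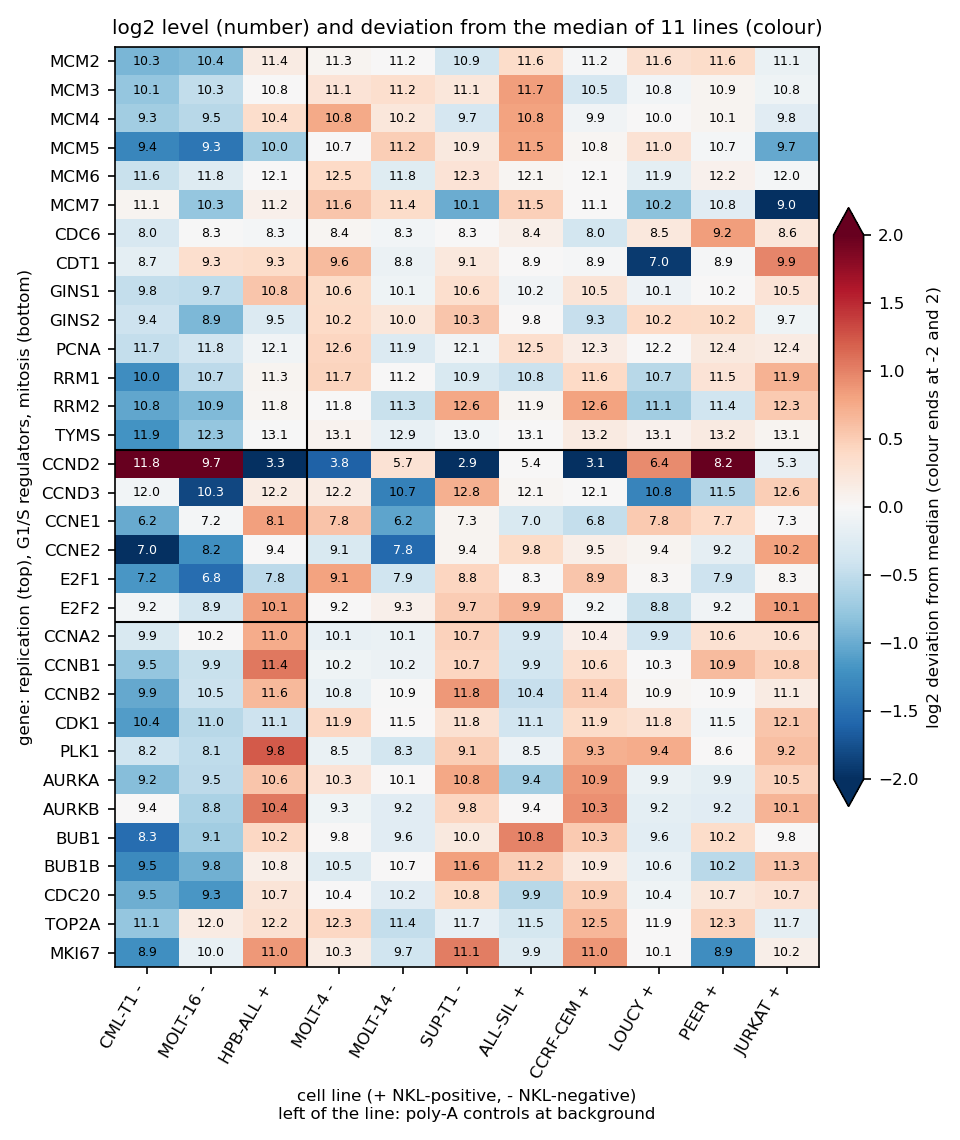
Heat map of the 32 genes (rows) in the 11 lines (columns), with the log2 level as number and the deviation from the gene's median over 11 lines as colour, which ends at -2 and 2. The columns of CML-T1 and MOLT-16 are mostly below the median for replication and mitosis genes, and CCND2 is at 11.85 and 9.69 there.

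The comparison that the study made between its cell lines set 5 NKL-positive against 5 NKL-negative lines. The members had a higher mean in the NKL-positive lines in 13 of 14 replication genes, 5 of 6 G1/S regulators and 12 of 12 mitosis genes. Of all genes, 49.8% were higher on average in these lines, and of the 11946 genes above the array median 6711 were. The median difference was 0.25 log2 units for replication, 0.23 for G1/S regulators and 0.37 for mitosis. It was -0.002 over all genes and 0.064 over those above the array median. The medians of the members depended on single lines. Without CML-T1 they were 0.11 for replication and 0.18 for mitosis. That of the G1/S regulators was 0.033 without MOLT-16, 0.34 without LOUCY, 0.44 without MOLT-4 and 0.46 without SUP-T1. None of the 32 members passed the adjusted threshold of 0.05 in limma, and the smallest adjusted p of a member was 0.981. Over the array 5 of 54613 probe sets passed (0.00916%). At an unadjusted p under 0.05, 4 of the 32 members were higher (12.5%), against 2.63% of all genes and 452 of the 11946 above the array median. The groups overlapped for each of the 32 members, whereas 0.379% of all genes were higher without overlap. The ACTB control had a mean of 0.88 ± 0.28 (SD, n = 5) in the NKL-negative and of 0.51 ± 0.28 (SD, n = 5) in the NKL-positive group (two-sided exact permutation test, p = 0.0873), and its part in these differences was not tested.

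The members at an unadjusted p under 0.05 were MCM2, CCNE2, PLK1 and BUB1. MCM2, a subunit of the helicase, was 11.62 in ALL-SIL, 11.22 in CCRF-CEM, 11.42 in HPB-ALL, 11.57 in LOUCY and 11.61 in PEER. In the NKL-negative lines it was 10.34 in CML-T1, 11.30 in MOLT-4, 11.25 in MOLT-14, 10.38 in MOLT-16 and 10.88 in SUP-T1. The positive lines lay in a narrow band, and MOLT-4 and MOLT-14 of the negative lines reached into it. The difference was 0.66 with an SE of 0.23 (limma, unadjusted p = 0.0177, adjusted p = 0.981).

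CCNE2 was 9.76 in ALL-SIL, 9.50 in CCRF-CEM, 9.38 in HPB-ALL, 9.44 in LOUCY and 9.20 in PEER. It was 7.03 in CML-T1, 9.07 in MOLT-4, 7.82 in MOLT-14, 8.16 in MOLT-16 and 9.44 in SUP-T1. SUP-T1 alone of the negative lines reached the range of the positive ones, and the difference was 1.15 with an SE of 0.41 (limma, unadjusted p = 0.0173, adjusted p = 0.981). The second probe set of CCNE2 differed by 1.14 in the same direction.

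PLK1, the Polo-like kinase that drives entry into mitosis, was 8.53 in ALL-SIL, 9.34 in CCRF-CEM, 9.85 in HPB-ALL, 9.37 in LOUCY and 8.63 in PEER. It was 8.23 in CML-T1, 8.50 in MOLT-4, 8.26 in MOLT-14, 8.12 in MOLT-16 and 9.12 in SUP-T1. Only SUP-T1 of the negative lines was above the lowest positive line, and the difference was 0.70 with an SE of 0.30 (limma, unadjusted p = 0.0406, adjusted p = 0.981).

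BUB1, a kinase of the spindle checkpoint, was 10.78 in ALL-SIL, 10.32 in CCRF-CEM, 10.21 in HPB-ALL, 9.58 in LOUCY and 10.16 in PEER. It was 8.27 in CML-T1, 9.79 in MOLT-4, 9.57 in MOLT-14, 9.10 in MOLT-16 and 9.98 in SUP-T1. The low end was made up of CML-T1 and MOLT-16, and the other lines overlapped. The difference was 0.87 with an SE of 0.34 (limma, unadjusted p = 0.0285, adjusted p = 0.981), and all 5 probe sets of BUB1 pointed the same way, by 0.29 to 1.09.

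The remaining mitosis genes differed by 0.12 in CCNA2 to 0.53 in CCNB1, both cyclin partners of CDK1. Between them lay the checkpoint kinase BUB1B with 0.36, CDC20, which activates the anaphase-promoting complex, with 0.46, and the proliferation antigen MKI67 with 0.17. Among replication genes the other differences ran from 0.03 in GINS2 to 0.51 in TYMS. CDT1 was the exception, with a mean of 8.60 ± 0.90 (SD, n = 5) in NKL-positive and 9.10 ± 0.34 (SD, n = 5) in NKL-negative lines, and without LOUCY the difference was only -0.10. CCND2 was the other member with a lower mean in NKL-positive lines, at 5.29 ± 2.13 against 6.80 ± 3.84 (SD, n = 5 each).

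Most genes of wider lists of the cell cycle had a higher mean in NKL-positive lines too. They were 31 of 45 other replication genes (median 0.16), 52 of 57 other mitosis genes (median 0.29) and 12 of 18 other G1/S genes (median 0.14). Over the 10 lines, the difference of the mean over the list was 0.21 for replication and 0.30 for mitosis, but only 0.0043 for G1/S. Within the 7 lines with poly-A controls these differences were -0.01, -0.04 and -0.17, so that none of these wider lists was higher there. For the members they were -0.08 for replication and -0.03 for mitosis, but 0.30 for the G1/S regulators. In LOUCY the other G1/S genes had a mean deviation of -0.59 but a median of 0.195. No gene of the wider lists passed the adjusted threshold in limma, and the smallest adjusted p was 0.912. The genes with the smallest p were UBE2C, a ubiquitin-conjugating enzyme of the anaphase-promoting complex (0.98), FOXM1, a transcription factor of mitotic genes (0.83), SMC2 of condensin (0.73) and CDCA8 of the chromosomal passenger complex (0.77) in the mitosis list. In the replication list they were the thymidine kinase TK1 (1.64), DNA2 (0.72) and MCM8 (0.52), with higher means, and the origin subunit ORC5 (-0.56), with a lower one. In the G1/S list they were SKP2 (0.85), CDK4 (0.62), TFDP1 (-2.62) and MYBL2 (0.89). Of the inhibitors of the cell cycle, 3 of 10 had a higher mean in NKL-positive lines.

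The same comparison was made apart for lines with and without poly-A controls. Within the 7 lines with controls, 4 NKL-positive and 3 NKL-negative, 5 of 14 replication genes and 5 of 12 mitosis genes were higher in the positive lines, with median differences of -0.12 and -0.08. Of the 11946 genes above the array median, 51.3% were higher there. MCM2 differed by 0.36 in these lines, CCNE2 by 0.70, PLK1 by 0.34 and BUB1 by 0.43. Among the 3 lines without controls, HPB-ALL was above the mean of CML-T1 and MOLT-16 in 14 of 14 replication genes and in 12 of 12 mitosis genes, with median differences of 0.66 and 1.35, beside 56.8% of genes above the array median. Here MCM2 differed by 1.06, CCNE2 by 1.79, PLK1 by 1.68 and BUB1 by 1.53. The last comparison rests on 1 line against 2 and has no test.

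Without CML-T1 and MOLT-16, a setting chosen after the data were seen, 5 of 14 replication genes, 3 of 6 G1/S regulators and 7 of 12 mitosis genes were higher in NKL-positive lines. A term for an NKL difference that depends on poly-A controls was also fitted. It rests on HPB-ALL as the only NKL-positive line without controls, so no p-value or count of it is given.

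**Figure D4:**
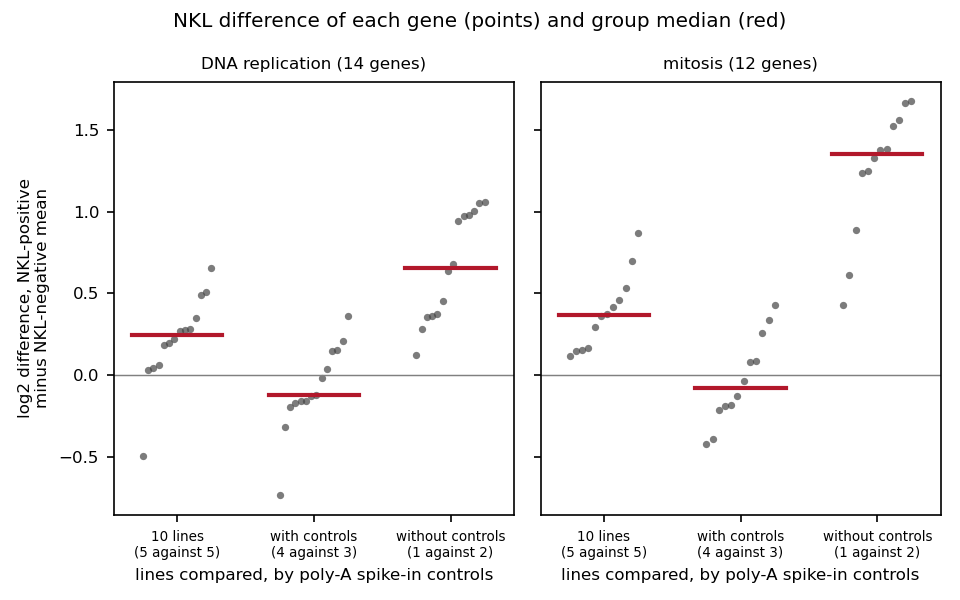
Difference of the NKL-positive minus the NKL-negative mean (y axis, log2) for each replication gene (left) and mitosis gene (right) in 10 lines, in the 7 lines with poly-A controls and in the 3 lines without (x axis). Red bars are medians, which are 0.25, -0.12 and 0.66 for replication and 0.37, -0.08 and 1.35 for mitosis.

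The 3 lines without poly-A controls were then compared directly with the other 8 lines. Of the members, 12 of 14 replication genes, 5 of 6 G1/S regulators and 11 of 12 mitosis genes had a lower mean in the lines without controls, while 52.3% of all genes did. The median differences were -0.52, -0.20 and -0.30, beside -0.03 over all genes. Without HPB-ALL they were -0.79, -0.60 and -0.81. Without CML-T1 those of replication and mitosis were -0.32 and 0.023. That of the G1/S regulators was 0.064 without MOLT-16, -0.11 without SUP-T1, -0.32 without LOUCY and -0.34 without MOLT-14. This split touched a large part of the array, as 10.4% of 54613 probe sets passed the adjusted threshold in limma. Of the 32 members 3 passed it (9.38%), a share close to that background. At an unadjusted p under 0.05, 11 of the 32 members were lower (34.4%), against 16.4% of all genes. Members whose groups did not overlap were 2 (6.25%), E2F1 and CDK1, both lower, against 9.29% of all genes. The part of RNA quality, labelling or array handling in these differences was not tested.

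E2F1, the E2F factor whose promoter stretch is printed among the sequences, was 7.15 in CML-T1, 6.80 in MOLT-16 and 7.79 in HPB-ALL. In the lines with controls it was 8.32 in ALL-SIL, 8.88 in CCRF-CEM, 8.34 in LOUCY, 7.91 in PEER, 9.13 in MOLT-4, 7.92 in MOLT-14, 8.75 in SUP-T1 and 8.35 in JURKAT. The highest line without controls, HPB-ALL, was close below PEER, the lowest of the other lines. The mean fell by 1.20 with an SE of 0.30 (limma, adjusted p = 0.0269), but the second probe set of E2F1 differed by only -0.26.

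CDK1, the kinase that starts mitosis, was 10.40 in CML-T1, 10.96 in MOLT-16 and 11.11 in HPB-ALL. In the lines with controls it was 11.13 in ALL-SIL, 11.88 in CCRF-CEM, 11.83 in LOUCY, 11.47 in PEER, 11.94 in MOLT-4, 11.52 in MOLT-14, 11.83 in SUP-T1 and 12.08 in JURKAT. HPB-ALL was next to ALL-SIL here, and the absence of overlap hangs on this pair. The mean fell by 0.89 with an SE of 0.23 (limma, adjusted p = 0.0328). Of its other probe sets a pair differed by -0.21 and -0.39 and the dimmest by 0.74.

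MCM5, a helicase subunit, was 9.42 in CML-T1, 9.28 in MOLT-16 and 10.03 in HPB-ALL. It was 11.51 in ALL-SIL, 10.76 in CCRF-CEM, 11.01 in LOUCY, 10.68 in PEER, 10.72 in MOLT-4, 11.21 in MOLT-14, 10.92 in SUP-T1 and 9.70 in JURKAT. JURKAT alone of the lines with controls was below HPB-ALL. The mean fell by 1.24 with an SE of 0.33 (limma, adjusted p = 0.0342), and the second probe set pointed the same way by -0.69.

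**Figure D5:**
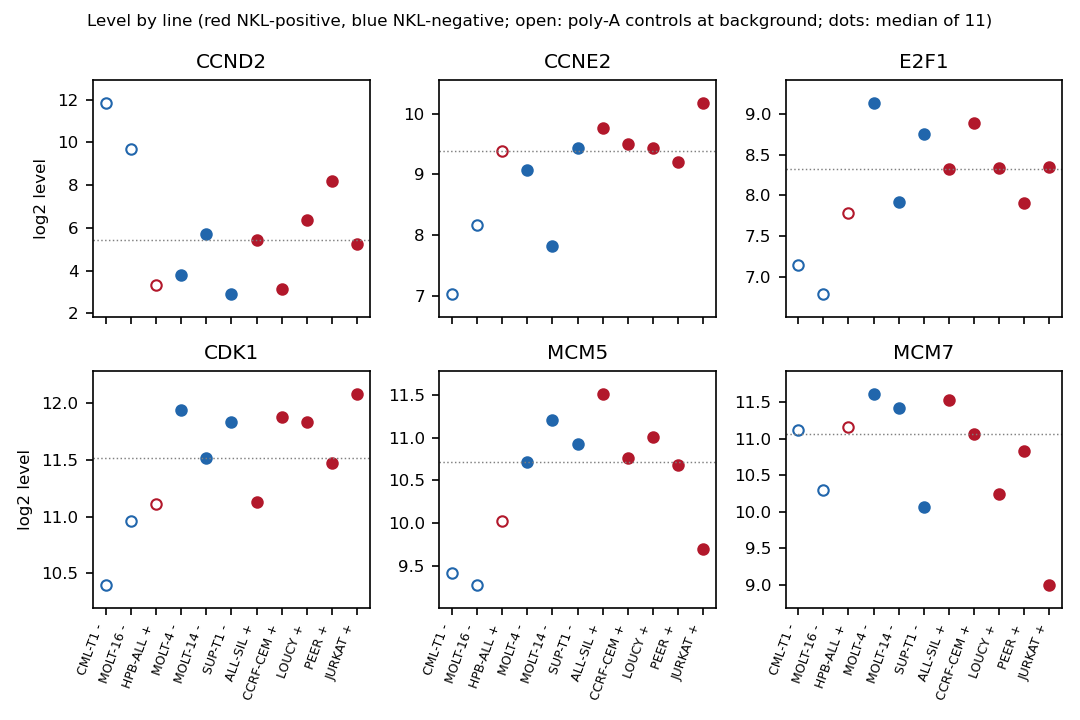
Log2 level (y axis) of CCND2, CCNE2, E2F1, CDK1, MCM5 and MCM7 in the 11 lines (x axis), with open circles for the 3 lines without poly-A controls and a dotted line at the median. CCND2 is highest in CML-T1 and MOLT-16, E2F1 and MCM5 are lowest in the same lines, and MCM7 is lowest in JURKAT at 9.0.

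The calls in this split depended on single lines. E2F1, CDK1 and MCM5 all lost the call without CML-T1 or without MOLT-16, where 0 members passed. Their differences stayed of like size with the smaller group, at -1.16 and -0.98 for E2F1, -0.68 and -0.95 for CDK1 and -1.16 and -1.09 for MCM5. The count was 1 without LOUCY or without SUP-T1, 2 without CCRF-CEM or without MOLT-14 and 9 without HPB-ALL. The call was 1 member with a term for NKL status and 1 with the mean over the probe sets of a gene. HPB-ALL was on the side of the lines with controls for most mitosis genes. CCNB1, for example, was 11.37 in HPB-ALL, 9.87 in MOLT-16 and 9.54 in CML-T1, with 9.95 to 10.95 elsewhere. Over all genes 2039 of 19775 passed the threshold in this split and 10348 had a lower mean in the lines without controls. Of the wider lists, 30 of 45 other replication genes, 46 of 57 other mitosis genes and 11 of 18 other G1/S genes had a lower mean there. The threshold was passed by 4, 3 and 2 of them, which is no larger a share than over all genes for replication and mitosis and about as large for G1/S. The replication genes that passed were POLE (-1.11), the catalytic subunit of DNA polymerase epsilon, LIG1 (-1.04), the ligase that joins Okazaki fragments, and the origin subunits ORC6 (-0.94) and ORC1 (-0.88). The mitosis genes were the kinesin KIF22 (-1.13), GTSE1 (-1.42) and the centriole kinase PLK4 (-0.91). The G1/S genes were E2F4 (-1.39), a repressing E2F factor, and SKP2 (-0.99), which targets the CDK inhibitor p27 for degradation. Among the inhibitors of the cell cycle 10 of 10 had a higher mean in the lines without controls, beside 9427 of 19775 genes. The differences ran from 0.0096 to 2.19, with a median of 0.64. Another probe set pointed the other way for several of the 10, such as TOB1 (-1.12 against 1.06), CDKN1C (-0.87) and RBL1 (-0.21). The mean deviation of the inhibitors was 0.988 in CML-T1, 0.617 in MOLT-16 and 0.477 in HPB-ALL. JURKAT, a line with controls, was above HPB-ALL at 0.575. The threshold was passed by 1 of the 10, the antiproliferative gene BTG1, which rose by 1.95 (limma, adjusted p = 0.0103).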

How the data were processed

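The authors hybridized RNA of 11 T-ALL lines to HG U133 Plus 2.0 arrays, 1 array per line, and processed them by RMA (background correction, quantile normalization and summary per probe set, with R packages affy and limma per the processing notes). The deposited log2 values, from 2.24 to 14.57 with array medians of 4.63 to 4.76, were used without further scaling. The methods also describe ratios to the sample mean before the logarithm. The deposited values are all above 0 and not centred, so this step was taken as not applied, and RMA log2 values were inferred from their range. Detection calls were not used, and precision is limited by the number of arrays. Of 54675 probe sets, 62 controls were left out. Symbols came from the platform annotation, in which 41091 probe sets carry 1 symbol, 1801 several and 11721 none.

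Linear models were fitted to all 54613 probe sets with limma 3.58.1 (R 4.3.3), with Benjamini-Hochberg adjusted p-values and a threshold of 0.05. Lines without poly-A controls were those whose mean over 24 control probe sets lay below the array median. The ACTB control was compared by an exact permutation test. In a simulation of the NKL comparison on 54613 probe sets, 54% of 200 changed ones were recovered. The change was 2 log2 units, which is more than the NKL difference of any member. Recovery of differences as small as those of most members was not tested. Tables were handled with Python 3.11.15 and pandas 2.3.3.

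Named genes were the 32 members, the 4 genes with the smallest p of each wider list in each comparison, and the markers. The wider lists held 45 replication, 57 mitosis and 18 G1/S genes and 10 cell cycle inhibitors. Members and lists were chosen with earlier results of these data known. The alternatives were other sets of lines, terms for poly-A controls or NKL status, median centring, quantile normalization, a floor at the lower quartile, the brighter probe sets only, an intensity trend and the mean over the probe sets of a gene.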

Additional observations from a re-analysis of the deposited data

Results flagged for a closer look

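The levels of the 32 members and the 3 means per line in the 2 NKL groups made 70 sets of values that were searched for a line far from the others of its group. Such a line was found in 3 of them, and chance alone would mark about 5% of the sets. MCM3 in ALL-SIL was 11.67, while the nearest NKL-positive line was at 10.88. CDT1 in LOUCY was 7.01, while the nearest NKL-positive line was at 8.89. CDC6 in CML-T1 was 8.01, while the nearest NKL-negative line was at 8.27.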

How the results depend on the processing

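Each line is 1 array, so that depth in the sense of read counts does not apply and the number of lines sets the limit. No paired analysis was possible because no line belongs to both groups. The NKL comparison called 0 members under every alternative, and its counts of higher genes moved by over 1.5 times only in the settings below that leave out several lines. In the lines with poly-A controls only, 5 replication genes (median difference -0.12), 3 G1/S regulators and 5 mitosis genes (median -0.080) were higher, and the sign turned for MCM3 (-0.16), MCM4 (-0.016), MCM6 (-0.16), MCM7 (-0.12), GINS1 (-0.19), GINS2 (-0.32), RRM1 (-0.13), RRM2 (-0.17), CCND2 (1.63), CCND3 (-0.30), E2F1 (-0.24), E2F2 (-0.17), CCNA2 (-0.12), CCNB2 (-0.21), CDK1 (-0.19), AURKA (-0.39), BUB1B (-0.18), CDC20 (-0.037), MKI67 (-0.42). Without CML-T1 and MOLT-16 together, which was added after seeing the data, 5 replication genes (median -0.093), 3 G1/S regulators and 7 mitosis genes were higher, and the sign turned for MCM3 (-0.18), MCM5 (-0.15), MCM6 (-0.15), MCM7 (-0.069), GINS1 (-0.087), GINS2 (-0.39), RRM1 (-0.10), RRM2 (-0.15), CCND2 (1.14), CCND3 (-0.18), E2F1 (-0.35), E2F2 (-0.011), CCNB2 (-0.087), CDK1 (-0.28), AURKA (-0.27), BUB1B (-0.16), MKI67 (-0.21). With a term for lines without poly-A controls the sign turned for MCM6 (-0.014), GINS2 (-0.12), CDK1 (-0.013), with quantile normalization for MCM6 (-0.004), GINS2 (-0.0044), with the mean over probe sets for MCM6 (-0.16), MCM7 (-0.016), RRM2 (-0.031), CCND3 (-0.069) and with JURKAT added for MCM7 (-0.27). Leaving out each line turned the sign at least in part for MCM3 (-0.0015 to 0.29), MCM7 (-0.15 to 0.24), AURKA (-0.049 to 0.36), MKI67 (-0.11 to 0.49), E2F2 (-0.0055 to 0.31), CCNA2 (-0.042 to 0.24), GINS2 (-0.19 to 0.18), MCM6 (-0.054 to 0.16), CDK1 (-0.079 to 0.31), CCND3 (-0.21 to 0.43). The cause of these turns was not tested, and none of the values had passed the test.

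In the comparison by poly-A controls, 1 member was called with the mean over probe sets, where the sign turned for MCM6 (0.59), CDT1 (-0.17), CCNA2 (-0.13), CCNB1 (0.11), AURKA (0.081), MKI67 (0.063). With a term for NKL status 1 member was called, 3 G1/S regulators were lower and the sign turned for CCNE1 (0.10), E2F2 (0.017), PLK1 (0.074), AURKB (0.13). The sign turned for MCM7 (-0.11), E2F2 (0.031), AURKB (0.056) without JURKAT and for CCNE1 (0.0083), AURKB (0.031) with arrays centred on their median. Leaving out each line gave 0 to 9 called members. The medians then ran from -0.79 to -0.32 for replication, -0.60 to 0.064 for G1/S regulators and -0.81 to 0.023 for mitosis, and 3 to 5 G1/S regulators and 6 to 12 mitosis genes were lower. Single members ranged over E2F2 (-0.41 to 0.19), AURKB (-0.48 to 0.37), MCM7 (-0.11 to 0.42), CCNA2 (-0.17 to 0.34), CDT1 (-0.067 to 0.38), CCNE1 (-0.49 to 0.43), CCNB1 (-0.77 to 0.15), PLK1 (-0.70 to 0.17), TOP2A (-0.35 to 0.19), MKI67 (-0.72 to 0.33), CCND3 (-0.70 to 0.29).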
